A study of Mus musculus with 8 samples.

Results

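Satellite glia are the flat cells that wrap the cell bodies of sensory neurons in the dorsal root ganglia, the clusters of sensory neurons beside the spinal cord. The 8 genes described here, Glul, Ednrb, Gja1, Sox2, Sox10, Apoe, Fabp7 and Cdh19, are in common use as markers of these cells. They were taken by gene symbol from a table of 40800 Ensembl genes, as a list chosen with earlier results of these data known. All 8 were in the table and all 8 passed the filter on low values, which kept 15030 genes for testing.

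RNA was sequenced from whole dorsal root ganglia of 8 mice aged 6 months. The wild types were 4 C57BL/6 mice (samples 1, 3, 4 and 8), and the mutants were 4 mice on a C57BL/6 background (samples 1, 2, 3 and 4) that were homozygous for a gene trap in Tmem184b, a gene for a transmembrane protein. A gene trap is an inserted cassette that captures splicing and cuts the transcript short. The labels name no cell type or promoter to which it is restricted. The samples are whole tissue, and fewer cells of a type and less RNA per cell cannot be told apart.

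Satellite glia take up glutamate and potassium released around the neuron, are joined to each other by gap junctions, and turn glutamate into glutamine. They share a neural crest origin with Schwann cells, the glia of the nerve fibres, and both depend on the transcription factor Sox10. None of the 8 markers belongs to satellite glia alone. Sox10, Cdh19 and Ednrb are also found in Schwann cells, Apoe also in macrophages, Gja1 also in fibroblasts, and Glul at lower levels in many cell types. After nerve injury or inflammation these cells often gain intermediate filaments and gap junctions.

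Library totals were 6183618 to 7983821 reads. Tmem184b was at 171 ± 8.44 CPM (reads of the gene scaled to the library total; mean ± SD, n = 4) in wild type and 6.65 ± 1.30 in the mutant, a log2 difference of -4.64 (limma adjusted p = 2.573e-12), and every mutant library lay below every wild-type library. Of the 15030 genes tested, 820 (5.46%) passed an adjusted p of 0.05, of which 423 (2.81%) were higher and 397 (2.64%) lower in the mutant. Over all tested genes the log2 difference had a median of 0.066, and 9684 genes (64.4%) had a positive difference. Xist, a transcript of females, had 2 to 7 reads in wild type 3 and mutants 3 and 4 and 1615 to 1902 reads in the other libraries. The labels give no sex. The mutant columns carry consecutive running numbers and the wild-type columns do not, so a batch recorded in these numbers cannot be told apart from genotype.

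Of the 8 markers 1 passed the test, beside 5.46% of all tested genes. This was Glul, at 1.41 times its wild-type level in the mutant. The other 7 did not pass it, with limma adjusted p from 0.0842 (Ednrb) to 0.983 (Fabp7). All 8 differences were above 0, with a median of 0.25 on the log2 scale, beside 64.4% of all tested genes. An unadjusted p under 0.05 was reached by 5 of the 8 in the higher direction, beside 14.1% of all tested genes. Groups that did not overlap, with the mutant higher, were seen for 1 of the 8, again Glul, beside 7.5% of all tested genes.

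**Figure D1:**
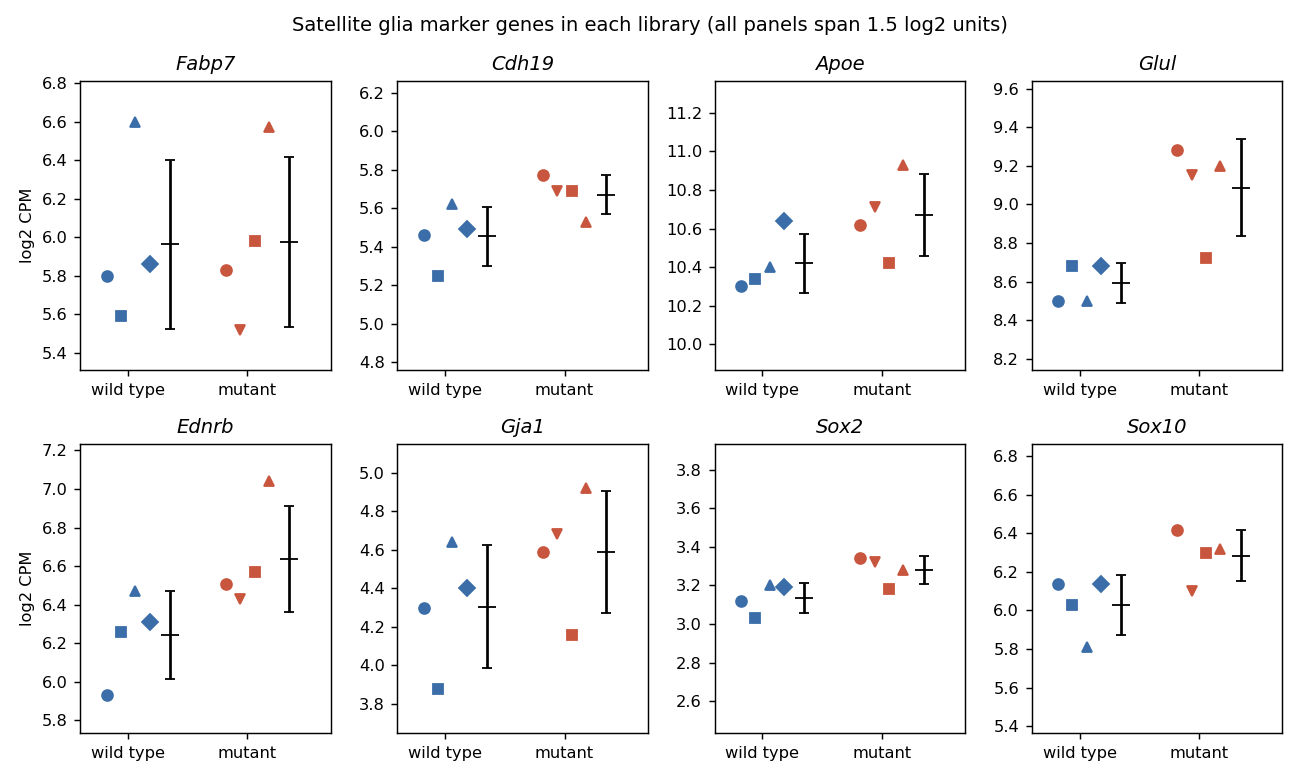
Moderated log2 CPM of each of the 8 markers in the 4 wild-type (blue) and 4 mutant (red) libraries, with the mean ± SD in black beside the points. Marker shapes are, left to right, wild types 1, 3, 4 and 8 and mutants 1, 2, 3 and 4, and every panel spans the same range. In the Glul panel the groups separate, and in the Fabp7 panel wild type 4 and mutant 4 stand above the other 6 libraries.

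The stretches before the transcription starts of Glul and Ednrb are shown because these were the 2 members with the largest differences. They are 250 bases each, 5′ to 3′, from RefSeq in the build GRCm38.p6. Capitals mark a match to the letters AGAACA on either strand (TGTTCT on the other), the half-site of the glucocorticoid receptor, a factor that is known to induce Glul in other tissues. The Glul stretch is chr1:153899679-153899928 on the plus strand, and the Ednrb stretch is chr14:103843702-103843951 on the minus strand. In the GENCODE M21 annotation Ednrb spans 103814625 to 103844402. The Ednrb stretch therefore lies inside the annotated gene, before a RefSeq start that is not its outermost one.
Glul: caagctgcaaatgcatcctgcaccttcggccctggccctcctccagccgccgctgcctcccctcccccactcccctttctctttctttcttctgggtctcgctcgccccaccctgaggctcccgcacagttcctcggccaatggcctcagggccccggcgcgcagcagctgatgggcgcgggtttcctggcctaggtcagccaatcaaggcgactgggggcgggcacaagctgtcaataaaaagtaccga
Ednrb: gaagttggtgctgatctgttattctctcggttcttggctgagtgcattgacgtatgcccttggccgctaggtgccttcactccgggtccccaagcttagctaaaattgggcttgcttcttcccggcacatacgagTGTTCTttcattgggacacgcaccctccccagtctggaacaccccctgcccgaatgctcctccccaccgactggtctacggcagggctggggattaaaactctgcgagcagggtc

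The Glul stretch held 64.8% G and C and 15 CpG dinucleotides, above the medians of 52.4% and 6.0 over all 32851 promoter stretches of that length. The Ednrb stretch held 56.8% G and C and 11 CpG. AGAACA was present in 16.08% of all stretches, and among the 6 members with an entry it was present for Ednrb, at 115 bases before the start on the other strand, and for 1 of the 3 Apoe starts. Both letter strings of the core site of Sox proteins, ACAAAG (16.46% of all stretches) and ACAATG (10.69%), were present at that same Apoe start, and ACAAAG also for Sox2. The Glul stretch held none of the 3 strings, and neither did those of Fabp7 and Gja1. A match is a match of letters in this window, and nothing in these data measured binding.

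Glul encodes glutamine synthetase, the enzyme that joins ammonia to glutamate. The gene (ENSMUSG00000026473) spans 153899944 to 153909723 on the plus strand of chromosome 1 (GRCm38). Its moderated log2 CPM was 8.50, 8.68, 8.50 and 8.68 in wild types 1, 3, 4 and 8, and 9.28, 9.15, 8.72 and 9.20 in mutants 1 to 4. Mutant 3 was the lowest mutant library and lay just above the highest wild types, while the other 3 mutants stood well clear of them. On the linear scale this was 386 ± 28.4 CPM in wild types against 549 ± 87.4 CPM in mutants (mean ± SD, n = 4 each). The log2 difference was 0.49 with an SE of 0.0977 and a 95% interval of 0.29 to 0.70 (limma adjusted p = 0.0101). With 2280 to 4148 Glul reads per library, counting error came to an SD of 0.0254 on the log2 scale, against 0.191 between libraries of a group.

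The Glul call was kept when each library in turn was left out, with differences of 0.43 to 0.62 and a highest adjusted p of 0.0406. It was lost when the spread was not allowed to vary with expression level (difference 0.49, adjusted p = 0.11). It was also lost when the mean of the myelinating Schwann cell list (0.50, adjusted p = 0.198) or of the skeletal muscle list (0.46, adjusted p = 0.0747) entered the fit beside genotype. Glul shares sequence with a pseudogene, Glns-ps1, at 96.8% identity over 1126 bases, but that locus held 4 to 13 reads. Teddm2, which overlaps Glul on the other strand, held 4 to 16 reads.

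The 14 tested genes of glutamate and glutamine handling had a median log2 difference of 0.13. Of them, 2 were called higher in the mutant, beside 2.81% of all tested genes. Slc1a5, a transporter of neutral amino acids that carries glutamine, rose from 30.1 ± 2.73 to 49.4 ± 13.8 CPM (log2 difference 0.67, limma adjusted p = 0.0203), with no overlap between groups. Slc38a2, a sodium-coupled glutamine transporter, rose from 410 ± 33.5 to 487 ± 29.3 CPM (0.25, limma adjusted p = 0.0385), with overlapping groups. With 1 library left out, the Slc38a2 call was lost in 6 of 8 fits, all but those without wild type 3 or mutant 3, and the Slc1a5 call in 2, without mutant 1 or mutant 2. Glud1 and Got1, which connect glutamate to the citric acid cycle and to aspartate, had differences of 0.14 and 0.09 with adjusted p of 0.252 and 0.392.

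Ednrb encodes the endothelin B receptor, a G protein-coupled receptor of glia. Its moderated log2 CPM was 5.93, 6.26, 6.47 and 6.31 in wild types 1, 3, 4 and 8, and 6.51, 6.43, 6.57 and 7.04 in mutants 1 to 4. Mutant 4 was highest, wild type 1 was lowest, and mutant 2 fell below wild type 4, the one overlap between the groups. Mean levels were 76.1 ± 11.6 and 101 ± 20.9 CPM, a log2 difference of 0.40 with a 95% interval of 0.13 to 0.67 (limma adjusted p = 0.0842). The gene passed the test without wild type 4 (0.47, adjusted p = 0.0425) and with the levels centred on pan-neuronal genes (0.46, adjusted p = 0.0386). The difference was smaller without mutant 4 (0.26, adjusted p = 0.199) and with the myelinating Schwann cell list (0.18, adjusted p = 0.794) or the skeletal muscle list (0.19, adjusted p = 0.507) in the fit. Of the 5 tested genes of the endothelin system, 0 passed the test by limma and 1 had non-overlapping groups, beside 12.4% of all tested genes. This was Ece1, an enzyme that cuts endothelins to their active form, at 125 ± 11.3 CPM in wild type and 103 ± 11.2 in the mutant (log2 difference -0.28, adjusted p = 0.0679). The endothelin A receptor gene Ednra was at 6.75 ± 1.98 and 7.85 ± 0.774 CPM (adjusted p = 0.503).

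Gja1 encodes connexin 43, a subunit of the gap junction channels between satellite glia. Its moderated log2 CPM was 4.30, 3.88, 4.64 and 4.40 in wild types 1, 3, 4 and 8, and 4.59, 4.68, 4.16 and 4.92 in mutants 1 to 4. Mutant 3 lay below 3 of the 4 wild types, so the groups were mixed. Mean levels were 19.8 ± 4.22 and 24.2 ± 5.10 CPM, a log2 difference of 0.28 with an interval of -0.07 to 0.64 (limma adjusted p = 0.35). Single libraries moved this value, to 0.14 without wild type 3, 0.17 without mutant 4 and 0.43 without mutant 3. The interval holds both 0 and the Glul difference, so with these 8 libraries Gja1 could be told neither from no change nor from a rise as large as that of Glul.

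Among the 10 tested genes of gap junctions and pannexins, 1 was called higher and 1 lower in the mutant, beside 2.81% and 2.64% of all tested genes. Tjp1, the scaffold protein ZO-1 that binds connexin 43, rose from 82.7 ± 13.9 to 110 ± 1.81 CPM (log2 difference 0.43, limma adjusted p = 0.0147). Panx1, a channel subunit found in both neurons and glia, fell from 60.8 ± 3.38 to 49.7 ± 4.33 CPM (log2 difference -0.29, limma adjusted p = 0.0384). Neither of these 2 genes had overlapping groups. The Tjp1 call was kept with each library left out, and the Panx1 call was lost in 6 of 8 such fits, all but those without wild type 8 or mutant 2. Panx2 was at 80.7 ± 5.52 and 69.4 ± 10.1 CPM (adjusted p = 0.188), and the connexin genes Gjb1 and Gjc3 of myelinating glia had adjusted p of 0.295 and 0.639.

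Sox10, the transcription factor that maintains peripheral glia, was at moderated log2 CPM of 6.14, 6.03, 5.81 and 6.14 in wild types 1, 3, 4 and 8, and 6.42, 6.10, 6.30 and 6.32 in mutants 1 to 4. Mutant 2 lay below wild types 1 and 8, and the other 3 mutants lay above all wild types. Mean levels were 65.3 ± 6.79 and 77.8 ± 7.12 CPM, a log2 difference of 0.25 with an interval of 0.07 to 0.44 (limma adjusted p = 0.104). With the levels centred on pan-neuronal genes the difference was 0.32 and passed the test (adjusted p = 0.0434). This centring moved the median of all tested genes from 0.066 to 0.133. The Sox10 difference was 0.16 with median centring (adjusted p = 0.368) and 0.23 with the myelinating Schwann cell list (adjusted p = 0.589). It was not called in any of the 8 left-out fits, and of 20 other alternatives 2 called it and 18 did not.

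Sox2, a transcription factor of neural progenitors that adult satellite glia keep, had the lowest CPM of the 8, with 53 to 70 reads per library. Its moderated log2 CPM was 3.12, 3.03, 3.20 and 3.19 in wild types 1, 3, 4 and 8, and 3.34, 3.32, 3.18 and 3.28 in mutants 1 to 4. Mutant 3 fell between the wild types, and the other 3 mutants were above them. Mean levels were 8.51 ± 0.464 and 9.44 ± 0.478 CPM. The log2 difference was 0.15 with an interval of -0.12 to 0.41 (limma adjusted p = 0.539), and counting error alone gives an SD of 0.183 at this depth. The libraries of a group differed by less than that, with an SD of 0.0746. A long noncoding gene, Sox2ot, overlaps Sox2 on the same strand, so part of these reads may belong to it.

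Of the 19 tested glial Sox, Notch and neuregulin genes, 17 had a positive difference, beside 64.4% of all tested genes. The median of the 19 was 0.17, and 1 passed the test, beside 5.46% of all tested genes. Notch1, a receptor that holds glial precursors in their fate, rose from 87.3 ± 7.43 to 111 ± 8.42 CPM (log2 difference 0.34, limma adjusted p = 0.0149), with no overlap between groups. This call was lost without mutant 1 (adjusted p = 0.0529). Notch2 was at 77.5 ± 18.6 and 98.6 ± 10.2 CPM (0.37, adjusted p = 0.104). Zeb2, a transcription factor of Schwann cell maturation, and Nrg1, the neuregulin that signals from axons to glia, had differences of 0.17 and 0.10 with adjusted p of 0.199 and 0.404.

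Sox10 (chromosome 15, 79154908 to 79165240 in GRCm38, minus strand) is 195.4 kb from Tmem184b, with 4 tested genes between them. Other genes near Tmem184b were therefore examined. Of 55 other tested genes within 1 Mb of Tmem184b, 2 passed the test (3.64%), beside 5.46% of all tested genes, and their median log2 difference was 0.055. These were Lgals1, which encodes a galectin (0.46, limma adjusted p = 0.0187), and Nptxr, which encodes a receptor of neuronal pentraxins (-0.41, limma adjusted p = 0.0163). The nearest genes, Maff, Pla2g6 and Pick1 on the Sox10 side and Csnk1e, Gm16059 and Kcnj4 on the other, all had adjusted p above 0.05, with differences of -0.27, -0.01, -0.01, -0.20, 0.80 and 0.08 in that order.

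**Figure D2:**
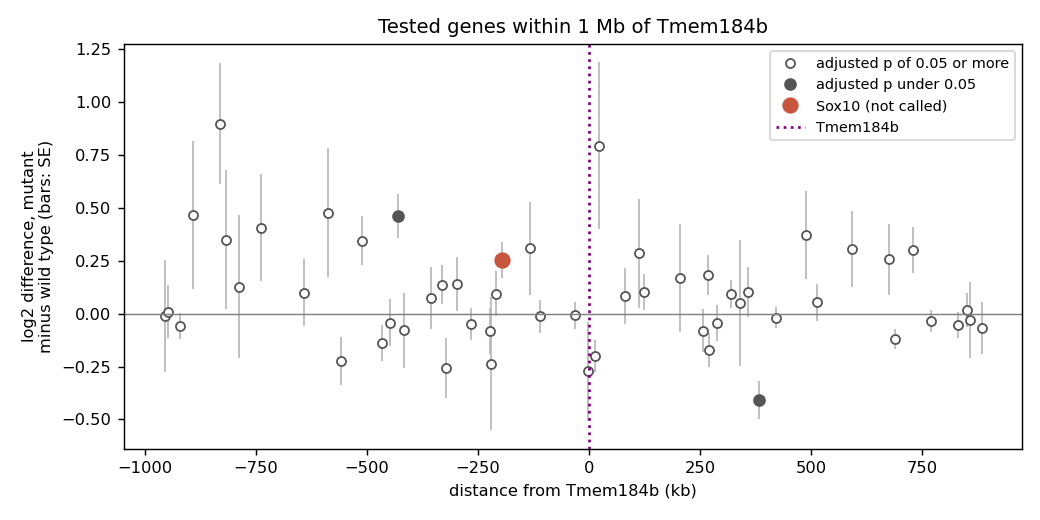
Log2 difference, mutant minus wild type, with its SE, of tested genes within 1 Mb of Tmem184b, against distance from that gene in kb. Sox10 is in red, filled grey points passed an adjusted p of 0.05, and the 2 filled genes, Lgals1 and Nptxr, differ in opposite directions.

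Apoe encodes apolipoprotein E, which carries cholesterol from glia to neurons, and was the most abundant of the 8 with 7957 to 13605 reads. Its moderated log2 CPM was 10.30, 10.34, 10.40 and 10.64 in wild types 1, 3, 4 and 8, and 10.62, 10.71, 10.42 and 10.93 in mutants 1 to 4. Wild type 8 lay above mutants 1 and 3, and the other 3 wild types lay below all mutants. Mean levels were 1378 ± 151 and 1642 ± 238 CPM, a log2 difference of 0.25 with an interval of 0.04 to 0.45 (limma adjusted p = 0.147). Without mutant 3 the difference was 0.33 and passed the test (adjusted p = 0.0399), and without mutant 4 it was 0.16 (adjusted p = 0.337). It was 0.14 with the myelinating Schwann cell list and 0.16 with the skeletal muscle list in the fit.

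The 13 tested apolipoprotein E receptors and lipid carriers had a median log2 difference of 0.12. Of them, 2 were called higher in the mutant, beside 2.81% of all tested genes. Apod, an apolipoprotein of glia and fibroblasts, rose from 436 ± 70.8 to 652 ± 126 CPM (log2 difference 0.58, limma adjusted p = 0.0133). Nr1h3, the sterol-sensing nuclear receptor LXR alpha that is known to induce Apoe, rose from 3.01 ± 0.125 to 5.42 ± 1.44 CPM (0.76, limma adjusted p = 0.0355). Its groups did not overlap, but with 1 library left out its call was lost in 7 of 8 fits, all but that without mutant 3, while the Apod call was kept in all 8. The receptor gene Lrp1, which takes up apolipoprotein E particles, had a difference of 0.29 with an adjusted p of 0.124, and the sorting receptor Sorl1 was at 883 ± 73.9 and 833 ± 95.7 CPM (adjusted p = 0.573).

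Fabp7, a fatty acid binding protein of immature and satellite glia, had the smallest difference of the 8. Its moderated log2 CPM was 5.80, 5.59, 6.60 and 5.86 in wild types 1, 3, 4 and 8, and 5.83, 5.52, 5.98 and 6.57 in mutants 1 to 4. One library of each genotype, wild type 4 and mutant 4, was high, and the other 6 lay within a narrow band shared by both groups. Mean levels were 64.5 ± 22.1 and 64.9 ± 21.01 CPM, a log2 difference of 0.01 with an interval of -0.43 to 0.46 (limma adjusted p = 0.983). The spread between libraries of a group had an SD of 0.442, against 0.0683 from counting error. Without both high libraries the difference was 0.03 (adjusted p = 0.932). The same 2 libraries had the highest means over the 8 fibroblast markers, 7.51 in wild type 4 and 7.47 in mutant 4, against 6.53 to 7.24 in the others. This was not particular to fibroblasts. The same 2 libraries were also highest over the immune markers, at 2.59 and 3.09 against 1.91 to 2.5 in the others. So they were over the red blood cell markers, at 4.18 and 4.27 against 2.86 to 3.96. The part of these cell types in the Fabp7 values was not tested.

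Of 9 other fatty acid binding protein genes, 5 had at most 3 reads in any library and 4 were tested, with a median difference of -0.21 and 0 passing the test by limma. Fabp5, the form found in many cell types, was at 35.6 ± 2.35 and 28.1 ± 3.52 CPM with no overlap between groups (log2 difference -0.34, adjusted p = 0.0559). Pmp2, the form of myelin, was at 6.59 ± 2.996 and 4.25 ± 0.989 CPM (adjusted p = 0.35), and Fabp3 had a difference of -0.08 (adjusted p = 0.825).

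Cdh19, a type II cadherin of neural crest-derived glia, was at moderated log2 CPM of 5.46, 5.25, 5.62 and 5.49 in wild types 1, 3, 4 and 8, and 5.77, 5.69, 5.69 and 5.53 in mutants 1 to 4. Mutant 4 fell below wild type 4, and the other 3 mutants were above all wild types. Mean levels were 43.9 ± 4.62 and 50.8 ± 3.54 CPM, a log2 difference of 0.21 with an interval of 0.03 to 0.40 (limma adjusted p = 0.164). Gm38255 and Gm36944 overlap Cdh19 on the same strand. Of 12 other tested type II cadherins, Cdh9 rose from 6.57 ± 1.16 to 11.0 ± 1.85 CPM (0.72, limma adjusted p = 0.0200), and the other 11 did not pass the test. The Cdh9 call was lost without wild type 8 or mutant 1. Cdh11, a cadherin of mesenchymal cells, was at 155 ± 4.80 and 134 ± 10.6 CPM with no overlap (-0.20, adjusted p = 0.0722).

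The differences of the 8 markers were also compared with each other. Relative to each of the other 7 members in the same library, Glul was higher in the mutant by 0.10 (Ednrb) to 0.48 (Fabp7) on the log2 scale, and all 7 of these ratios had overlapping groups. Over 7 exact two-sided permutation tests of these ratios, the raw p ran from 0.0571 (Sox2) to 0.686 (Ednrb) and the adjusted p from 0.3 to 0.686, with 0.0286 the smallest p that 70 assignments allow. With adjustment over 7 tests, a single ratio could not have passed the threshold even at that smallest p. The tests therefore cannot decide whether the response of Glul differed from that of any other member. Glul had the largest difference of the 8 markers, so its rise relative to each of the other 7 follows from that ranking. Relative to the mean of the other 7, Glul stood at 2.66 ± 0.214 in wild types against 2.93 ± 0.212 in mutants (log2, SD, n = 4 each).

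The libraries ranked differently for different members. Mutant 1 held the highest value of all 8 libraries for Glul, Sox10, Sox2 and Cdh19, and mutant 4 held it for Apoe, Ednrb and Gja1. Wild type 4 held it for Fabp7. The 8 members together took 0.188% to 0.229% of wild-type reads and 0.211% to 0.292% of mutant reads, ranges that overlap, and Apoe made up 62.6% to 69.7% of each sum. Without Apoe, the other 7 summed to 620 to 693 CPM in wild types against 736 to 977 CPM in mutants, with no overlap. Most of that sum is Glul, and without it as well the other 6 summed to 249 to 324 CPM in wild types against 286 to 391 CPM in mutants, ranges that overlap.

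Per kilobase of exon sequence, which allows genes to be compared, wild-type levels were 645 CPM for Apoe, 116 for Glul, 51.6 for Fabp7, 21.4 for Sox10, 17.9 for Ednrb, 10.2 for Cdh19, 4.14 for Sox2 and 1.93 for Gja1. The ranges over the 4 libraries of neighbours in this order were separate, except those of Sox10 and Ednrb, which overlapped in wild type and in the mutant. Gja1 was last because its annotated exons cover 10257 bases, and with the median length of its transcripts its level was 11.3 CPM per kb. With median transcript lengths for every member, Gja1 came above Sox2. The ranges of Sox10 and Ednrb were then separate, and those of Ednrb and Cdh19 overlapped, in both genotypes. The order thus depends on the length used. By CPM rank over all tested genes, Apoe stood at the 99.7th percentile and Sox2 at the 35.6th.

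The markers were set beside 22 other genes that are in use for satellite glia or were reported in them, a list drawn up with earlier results of these data known. Of these, 21 were tested (Scrg1 was below the filter), 20 had a positive difference, and 10 were higher and 0 lower in the mutant by limma, with a median log2 difference of 0.30. Over all tested genes, 64.4% were positive, 2.81% were called higher and 2.64% lower, and the median was 0.066. Cadm4, an adhesion protein of Schwann cells, was the 1 with a negative difference, at -0.14 (adjusted p = 0.362). The metallothionein genes Mt2 and Mt1, which bind zinc and are induced by metals and glucocorticoids in many cell types, had the largest differences at 1.48 (limma adjusted p = 0.0336) and 1.02 (limma adjusted p = 0.0142), with overlapping groups for both. Mt2 ranged over 3.31 to 5.32 on the log2 CPM scale in wild type and 4.98 to 6.74 in the mutant, with wild type 8 above mutant 3. The Mt2 call was lost in 5 of 8 fits with 1 library left out, all but those without wild type 3, wild type 8 or mutant 3, and the Mt1 call in 2, without wild type 1 or mutant 1.

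The extracellular matrix and adhesion genes of this list that rose were Ptprz1, Bcan, Fbln2 and Fbln5. Ptprz1, a receptor phosphatase that binds matrix, was at 6.29 to 6.62 log2 CPM in wild type and 6.76 to 6.83 in the mutant (limma adjusted p = 0.00996). Bcan, the proteoglycan brevican, rose from 81.6 ± 5.07 to 101 ± 3.31 CPM (limma adjusted p = 0.0115). The fibulin gene Fbln2 rose from 136 ± 4.44 to 175 ± 13.8 CPM (limma adjusted p = 0.0044), and Fbln5 from 70.4 ± 2.58 to 96.7 ± 20.01 CPM (limma adjusted p = 0.0382). With 1 library left out, the Fbln5 call was lost in 7 of 8 fits (all but that without mutant 3), and the other 3 were kept in all 8. All 4 are also made by cells other than satellite glia, the fibulins mainly by fibroblasts.

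S100b, a calcium-binding protein of glia, rose from 466 ± 26.9 to 571 ± 73.3 CPM (limma adjusted p = 0.0438). Ttyh1, a membrane protein of glia, rose from 74.2 ± 2.04 to 91.2 ± 1.12 CPM (limma adjusted p = 0.0075), and Tyrp1, an enzyme of pigment cells that has been found in satellite glia, from 5.35 ± 0.945 to 10 ± 2.26 CPM (limma adjusted p = 0.0162). None of these 3 had overlapping groups. With 1 library left out, the S100b call was lost in 6 of 8 fits, all but those without wild type 8 or mutant 3, the Tyrp1 call without mutant 1, and the Ttyh1 call in none. Hmgcs1, an enzyme of cholesterol synthesis, had a difference of 0.11 and did not pass the test (adjusted p = 0.189). Gfap, the intermediate filament of reactive glia, and Kcnj10, their potassium channel, are named after their values were seen. Gfap was at 7.46 ± 5.39 and 12 ± 3.5 CPM (log2 difference 0.90, adjusted p = 0.188), and its wild-type libraries ran from 1.66 to 3.87 on the log2 scale, against 3.16 to 4.06 in the mutant. Kcnj10 was at 70 ± 8.49 and 83.9 ± 16.2 CPM (0.25, adjusted p = 0.240). The count of 10 calls became 5 with median centring and 0 with the myelinating Schwann cell list in the fit. Over all tested genes, these 2 settings left 204 and 13 called higher, in place of 423.

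**Figure D3:**
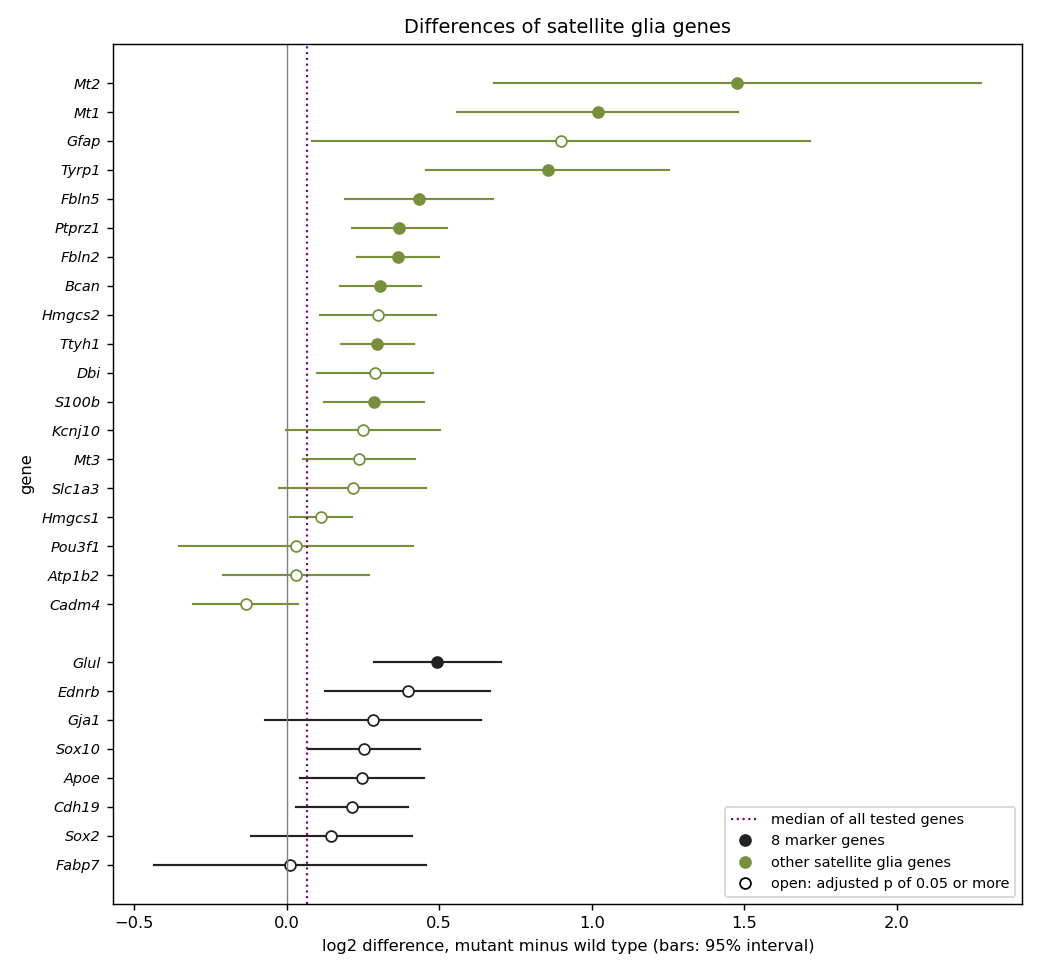
Log2 difference, mutant minus wild type, with its 95% interval, for the 8 markers (black) and 19 of the 21 other satellite glia genes tested (green). Filled points passed an adjusted p of 0.05, and the dotted line is the median of all tested genes, 0.066. Of the 8 markers Glul is filled, and 9 of the 19 other genes are.

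Over the 8 lists of related genes described above, 97 distinct genes were tested, of which 17 were higher and 1 lower in the mutant (18.6%), beside 5.46% of all tested genes. These lists were chosen with earlier results known, so the share describes them and tests nothing. By limma, 10 of the 17 came from the list of other satellite glia genes.

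Markers of other cell types were read in the same libraries. The 10 myelinating Schwann cell markers had a median log2 difference of 0.32, beside 0.25 for the 8 satellite glia markers, with 9 positive and 2 called. Of all tested genes, 64.4% were positive and 5.46% were called. Summed over the list, wild types held 2535 to 3325 CPM and mutants 3015 to 3639 CPM, ranges that overlap. The called genes were Ncmap and Drp2. Ncmap, a membrane protein of myelin, was at 37.5 ± 4.42 and 60.8 ± 7.32 CPM (limma adjusted p = 0.00157). Drp2, of the Schwann cell dystroglycan complex, was at 236 ± 29.3 and 312 ± 35.8 CPM (limma adjusted p = 0.0203). The Ncmap call was kept with each library left out, and the Drp2 call was lost without wild type 1, wild type 3, mutant 1 or mutant 4. With this list in the fit, the median difference of the 8 satellite glia markers was 0.10 in place of 0.25. Fabp7 and Gja1 were then below 0, at -0.52 and -0.031, and Ednrb was at 0.18, Apoe at 0.14, Cdh19 at 0.074 and Sox2 at 0.069. Glul and Sox10 changed little, at 0.50 and 0.23, beside 0.49 and 0.25 without the list.

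The 8 markers of non-myelinating Schwann cells had a median of 0.01, and 1 of them, the adhesion gene L1cam that neurons also express, fell from 928 ± 66.4 to 761 ± 78.5 CPM (limma adjusted p = 0.0373). Whole ganglia were sampled, so neuronal RNA may be part of the other values on this list as well. The median is therefore not a measure of these Schwann cells alone, and the part of neurons in it was not tested. The 10 pan-neuronal markers had a median of -0.06. Of these, Syt1, a synaptic vesicle protein, fell from 434 ± 5.11 to 365 ± 22.2 CPM (limma adjusted p = 0.0146), and Avil, the actin-binding protein advillin of sensory neurons, fell from 1037 ± 34.5 to 889 ± 28.3 CPM (limma adjusted p = 0.0203). With 1 library left out, the Syt1 call was kept in all 8 fits, the L1cam call in 3 (without wild type 4, wild type 8 or mutant 3) and the Avil call in 4 (without wild type 4, wild type 8, mutant 3 or mutant 4). Summed pan-neuronal levels were 9671 to 10700 CPM in wild types against 9627 to 10300 CPM in mutants. The neuronal markers of a sensory ganglion were thus abundant in all 8 libraries.

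The 8 fibroblast markers were all above 0, beside 64.4% of all tested genes, with a median of 0.36. They summed to 1079 to 2014 CPM in wild types against 1433 to 2201 CPM in mutants. The matrix gene Dcn rose from 270 ± 45.6 to 408 ± 68.9 CPM (limma adjusted p = 0.0082), and Apod is on this list too. The 9 tested immune markers had a median of 0.36, with Cd163, a scavenger receptor of macrophages, up from 8.94 ± 2.23 to 15.8 ± 3.52 CPM (limma adjusted p = 0.0208) and summed levels of 44.5 to 72.6 and 60.5 to 102 CPM. The Cd163 call was lost without wild type 8, mutant 1 or mutant 4, and the Dcn call was kept in all left-out fits. The lists of endothelial cells, mural cells, central nervous system glia and red blood cells had 0 calls each by limma, with medians of 0.17, 0.25, 0.14 and 0.07.

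The 6 tested skeletal muscle markers had a median of 1.63 and 0 calls by limma, with summed levels of 3.81 to 36.2 CPM in wild types against 11.1 to 157 CPM in mutants. Mutant 4, which had the highest values of Apoe, Ednrb and Gja1, also had the highest muscle sum. Its sums of fibroblast, immune, mural and red blood cell markers were the highest of all libraries too. Those of both Schwann cell lists and of the pan-neuronal, endothelial and central nervous system glia lists were not. The part of these other cell types in the marker differences was not tested. The fits with the Schwann cell or muscle list beside genotype cannot decide it, because both lists were themselves higher on average in the mutant. Those fits left 44 and 235 of all tested genes called, in place of 820.

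**Figure D4:**
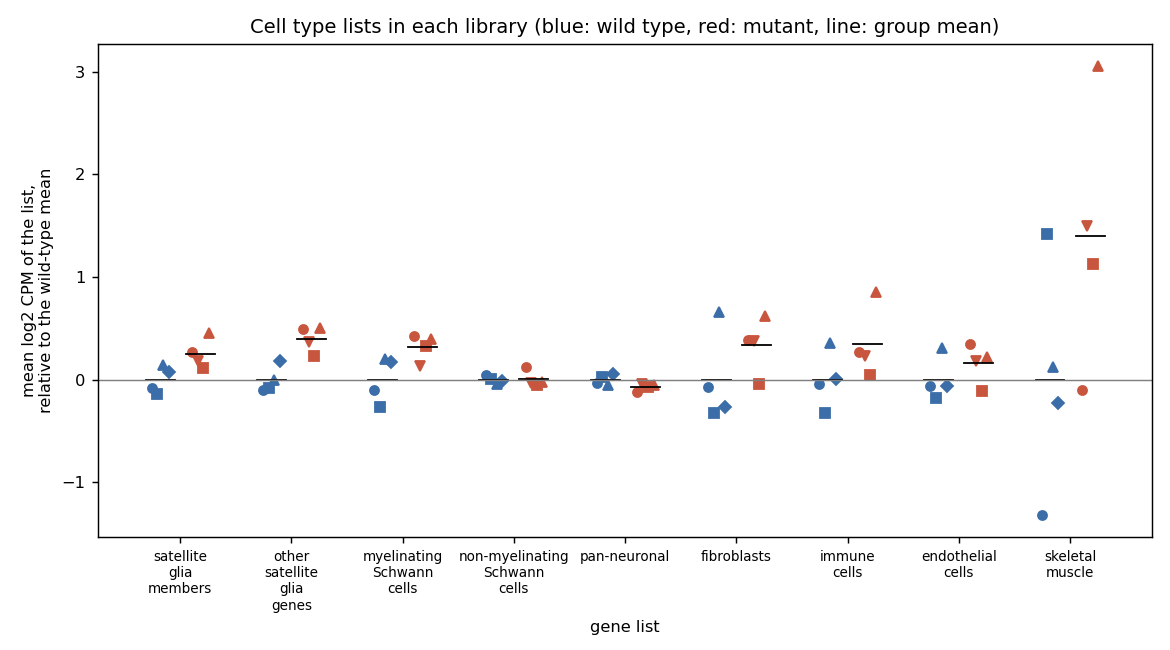
Mean log2 CPM of 9 marker lists in each library, relative to the wild-type mean of the list, with wild types in blue, mutants in red and a black line at each group mean. The 8 markers and the myelinating Schwann cell list are higher on average in the mutant with partial overlap, the other satellite glia genes do not overlap, and the muscle list has the widest range of the 9.

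The genes whose pattern over the 8 libraries was most like that of Glul were found by the root mean square difference of mean-centred log2 CPM, which has a median of 0.327 over all tested genes. They were Tns2, a tensin of focal adhesions (0.0854), Emcn, an endothelial sialomucin (0.0921), and Hpcal4, a neuronal calcium sensor (0.0929). Tns2 passed the test between genotypes (difference 0.56, limma adjusted p = 0.00531), and Emcn and Hpcal4 did not. Those most like the mean of the 8 markers were Elovl1 (0.0374), which lengthens fatty acids, Gal3st1 (0.0411), which makes the myelin lipid sulfatide, and Diaph2 (0.0447), a formin, against a median of 0.226. None of these 3 passed the test, with adjusted p of 0.0516 to 0.172. Both sets were selected for likeness over the same 8 libraries that hold both genotypes. Genotype differences like that of the pattern therefore follow from the selection and are no independent result.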

How the data were processed

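Total RNA of dorsal root ganglia was read as single-end 150 base Illumina libraries, per the labels' protocols. The submitters' processing notes name Salmon 0.11.1, DESeq2 and the build mm9, with no role or order, and the annotation and use of strand are not given in the sources used here. Moderated log2 CPM is the unit of the 1 table deposited by the authors: reads plus a small prior, divided by the library total and put on a log2 scale, as its values show. The GC percent of each gene is a deposited annotation column. The table had 41422 lines and 40800 distinct identifiers, and repeated identifiers carried the same values. In each library, 100.0% of values came out as whole numbers of reads (tolerance 0.05 reads), which gave the reads per gene, the library totals and a prior averaging 2.0 reads.

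Genes with log2 CPM above 0 in at least 4 of the 8 samples were tested with limma 3.58.1 in R 4.3.3 (mean-variance trend, no covariate, two-sided), with Benjamini-Hochberg adjustment over the 15030 genes tested and a threshold of 0.05. The prior shrinks the fold changes of genes with few reads. Gene positions and exon lengths come from GENCODE M21 (GRCm38), which is not the build in the notes, matched by identifier for 40254 of 40800. Promoter stretches are from RefSeq, and 6 of 8 members had an entry. Copies were sought with blastn 2.17.0. Ratios and tables were made with pandas 2.3.3, numpy 2.4.6 and scipy 1.17.1 in Python 3.11.15, and plots with matplotlib 3.10.9. The fit was tested on simulated reads.

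Genes named are the 8 members, Tmem184b, the called genes and up to 3 uncalled genes of highest level per list, called genes and the 3 nearest on each side within 1 Mb of Tmem184b, and the 3 genes most like Glul or the members' mean. Of the cell type lists, called genes are named. Exceptions are some genes, called and uncalled, that are counted in their lists and not reported here by name, and Gfap and Kcnj10, named after their values were seen. The members and lists were chosen with earlier results of these data known. The design text describes 4 mice per genotype as the source of the samples. Alternatives covered the filter, the pseudocount, scaling, the variance model, weights, covariates, left-out samples, a replicate block, voom on the recovered reads and the thresholds. A GC correction and the removal of 2 libraries together were added after seeing the data.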

Additional observations from a re-analysis of the deposited data

Results flagged for a closer look

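Dixon's test was applied to 56 groups of 4 libraries (markers, Tmem184b and list means, per genotype), of which chance flags about 1 in 20, or 2.8 groups. It marked 2. The mean log2 CPM of the apolipoprotein E receptors and lipid carriers was 6.33 in wild type 4 and 6.23 to 6.24 in the other 3 wild types. The mean of the non-myelinating Schwann cell markers was 8.03 in mutant 1 and 7.85 to 7.88 in the other 3 mutants. Neither Fabp7 in wild type 4 nor any other single marker was marked.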

How the results depend on the processing

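Counts of genes called higher and lower, 423 and 397 as reported, were 204 and 706 with median centring, 914 and 243 centred on the pan-neuronal list, 67 and 75 with no variance trend, 13 and 31 with the myelinating Schwann cell list as a covariate, 101 and 134 with the muscle list, 257 and 604 with the GC trend removed, 876 and 612 at an adjusted p under 0.1, and 47 and 32 at a log2 difference of at least 1. Quantile normalization gave 271 higher. Leaving out each sample gave 174 to 572 higher and 230 to 427 lower, the lowest of both without wild type 1. The share called higher, 51.6%, was 22.4%, 39.1%, 79.0% and 29.8% under median centring, quantile normalization, pan-neuronal centring and GC removal, and median centring moved the median of all genes from 0.066 to -0.026.

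The members' median difference, 0.25, was 0.16 with median centring, 0.10 with the Schwann cell list and 0.18 to 0.30 over left-out samples. Of the 25 called list genes named, 10 kept their call with each sample left out and 15 lost it in at least 1 such fit. Of the 8 members, 1 was called as reported. The count was 3 with pan-neuronal centring, 2 at an adjusted p under 0.1, and 0 with no variance trend, with the Schwann cell or muscle list, and at a log2 difference of at least 1, and leaving out each sample gave 1 to 2. The Glul difference stayed at 0.49 with no variance trend and at that fold threshold, and was 0.50 and 0.46 with the Schwann cell and muscle lists. Ednrb was called at 0.46 and Sox10 at 0.32 with pan-neuronal centring, and Ednrb at 0.40 with the threshold of 0.1. Over left-out samples Ednrb ranged from 0.26 to 0.47, Apoe from 0.16 to 0.33 and Fabp7 from -0.19 to 0.23. Fabp7 turned negative with median centring (-0.0809), quantile normalization (-0.0171), sample weights (-0.0546), Xist as a covariate (-0.0055), the Schwann cell list (-0.52), the muscle list (-0.13) and GC removal (-0.0807). Gja1 became -0.0314 with the Schwann cell list. Of the other list genes, Gjb1 (-0.15), Gjc3 (-0.15) and Sorl1 (0.0425) changed sign with that list, Cdh8 (-0.0004) with GC removal and Fabp3 without wild type 8 (0.0131, with a range of -0.2321 to 0.0131 over left-out samples).

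The 10 calls among other satellite glia genes became 5 with median centring, 6 with a robust trend, 3 with the muscle list, 2 at a log2 difference of at least 1, and 0 with no variance trend or the Schwann cell list, and leaving out each sample gave 5 to 12. Neighbours of Tmem184b called, 2 as reported, were 4 with pan-neuronal centring and at an adjusted p under 0.1, and 0 with no variance trend, either list or the fold threshold, with 0 to 2 over left-out samples. The cause of these changes was not tested.

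Samples numbered 1, 3 and 4 in both genotypes correlated at 0.0806, 0.0414 and 0.0575 in their deviations from the group means. Differently numbered samples were not compared, so these values cannot decide whether equal numbers mark a pairing. With a replicate block on these 6, 3 members were called, Glul, Ednrb (0.49) and Sox10 (0.35), and 326 genes were higher and 345 lower, against 180 and 267 for the same 6 without the block, and Fabp3 was 0.0634 in both. With median transcript length, wild-type CPM per kb was 76.6 for Fabp7, 18.7 for Cdh19, 1687 for Apoe, 702.5 for Glul, 11.3 for Gja1 and 35.3 for Sox10. Sox2, with 53 to 70 reads, is limited by depth.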
